A study of Macaca fascicularis with 20 samples.

Results

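The miR-181 and miR-135 families were followed across 7 laser-cut regions of the fetal visual cortex of the crab-eating macaque. Members were taken by name. The tables list them as mir-181a, mir-181b, mir-181c, mir-181d, mir-135a and mir-135b, each with a 5p and a 3p arm, which gave 12 of the 1656 arms listed in both deposited tables. The 12 arms are 8 of the miR-181 family and 4 of the miR-135 family. No measured value enters that choice of names. The families were nevertheless picked with earlier results from the same libraries known, so the differences given here describe these libraries and are no independent evidence for the families.

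The regions were the ventricular zone (VZ), the outer subventricular zone (OSVZ) and the cortical plate (CP) of areas 17 and 18. The OSVZ of area 17 was sampled in its apical part (inner, OSVZ_17int) and in its basal part (outer, OSVZ_17ext). Each region had 1 library from set 1 (embryonic day 80) and 1 from set 2 (embryonic day 79), which gave 4 VZ, 6 OSVZ and 4 CP libraries of Macaca fascicularis, with no genotype, treatment or sex named in the labels. The labels do not say how many animals gave the regions of a set, so the p-values cover only variation among these samples, part of which may be technical. The other 6 labelled samples were not analysed here.

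A miRNA is cut from a hairpin whose sides give the 5p and the 3p arm, and usually 1 arm is loaded into the silencing complex and the other is degraded. The 5p arms of miR-181a, b, c and d share their seed, the bases that pair with target mRNAs, and in mammals the genes lie in pairs, miR-181a beside miR-181b and miR-181c beside miR-181d. The family is best known from mouse thymocytes, where miR-181a tunes T cell receptor sensitivity, and in rat neurons miR-181a lowers the AMPA receptor subunit GluA2. The 5p arms of miR-135a and miR-135b share another seed and are nearly identical. In the mouse miR-135a limits midbrain progenitors through Wnt signalling, miR-135 arms favour axon growth by repressing Klf4, and in human colorectal cancer they repress APC, a brake on Wnt signalling.

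Read counts were scaled with TMM, a scaling that assumes that most arms do not differ between libraries. They are given as CPM, counts scaled to a common library size and not divided by length. Libraries held 3603478 to 9517217 counts. The neuronal miR-124-3p averaged 0.818 CPM and had 0 counts in 7 of 14 libraries, while other neuronal arms and the radial glia arm miR-92b-3p were present. VZ libraries that stood apart were VZ_18 replicate 1 and VZ_17 replicate 2. In VZ_18 replicate 1 the 6 erythroid arms (miR-144, miR-451, miR-486) summed to 334 CPM, against 55.9 to 127.6 CPM in the other VZ libraries. In VZ_17 replicate 2 the 22 neuronal arms summed to 8301 CPM, against 44857 to 76082 CPM in the other VZ libraries. The neuronal sum was also low in OSVZ_17int replicate 2, at 14619 CPM against 33957 to 78648 CPM in the other OSVZ libraries. In CP it was lower in set 2 (46475 and 57871 CPM) than in set 1 (150590 and 114350 CPM). Most of the neuronal sum was miR-9. Over all libraries miR-9-5p averaged 42175 CPM and miR-9-3p 8217 CPM, and the next neuronal arm, miR-139-5p, averaged 4108 CPM. In such tissue pieces, fewer cells of a type and less miRNA per cell cannot be told apart.

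By mean CPM over the 14 libraries 5 of the 6 5p arms were among the abundant ones of 1656, all but miR-135a-5p. The order was miR-181a-5p (4613 CPM, rank 24), miR-135b-5p (2015 CPM, rank 42), miR-181b-5p (1743 CPM, rank 46), miR-181c-5p (1593 CPM, rank 51) and miR-181d-5p (973 CPM, rank 68). Over the libraries, the ranges of neighbours in that order overlapped throughout. Of the 3p arms, miR-181a-3p (980 CPM, rank 66) stood just above miR-181d-5p, followed by miR-181c-3p (395 CPM), miR-181b-3p (66.0 CPM), miR-135b-3p (47.6 CPM), miR-181d-3p (6.34 CPM) and miR-135a-3p (1.67 CPM). The filter on low counts kept 1139 arms, among them 11 of the 12 members. It removed miR-135a-5p.

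miR-135b-5p, the abundant arm of its family, was lowest in VZ and highest in CP. It stood at 691, 399, 391 and 613 CPM in the 4 VZ libraries. In the 6 OSVZ libraries it ran from 660 to 3346 CPM with a median of 1120.5 CPM. In the 4 CP libraries it stood at 3101, 3457, 5087 and 5596 CPM. All VZ libraries lay below all CP libraries, and in OSVZ only OSVZ_17int replicate 1, at 3346 CPM, reached the CP range.

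The level of miR-135b-5p averaged 523 ± 152 CPM over the 4 VZ libraries (mean ± SD), 1479 ± 964 CPM over the 6 OSVZ libraries and 4310 ± 1217 CPM over the 4 CP libraries. Against CP it was lower in VZ, with a log2 difference of -3.02 ± 0.42 (SE), 0.124 times the CP level (edgeR adjusted p = 2.77e-06, the 13th smallest p of 1139 arms). The difference was -2.93 within set 1 and -3.15 within set 2. OSVZ was also lower than CP, at -1.70 ± 0.37 (adjusted p = 0.00237), with -1.26 in set 1 and -2.24 in set 2. Both calls held in each of 21 other settings, 14 of which left out 1 library. The OSVZ call came close to the threshold, with a highest adjusted p of 0.0498 over these settings and 0.0414 without the set as a block. For VZ the highest was 0.00128.

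By region, mean miR-135b-5p ran from VZ_18 (502 CPM) and VZ_17 (545 CPM) through OSVZ_18 (1120.5 CPM), OSVZ_17ext (1313 CPM) and OSVZ_17int (2003 CPM) to CP_17 (3279 CPM) and CP_18 (5341 CPM). With 2 libraries per region, OSVZ_17int (660 and 3346 CPM) overlapped VZ_17, both other OSVZ regions and CP_17, while OSVZ_18 and OSVZ_17ext lay between VZ and CP without overlap with either. The 3p arm miR-135b-3p was much rarer. It had 16.6, 45.6, 11.2 and 17.0 CPM in VZ, 9.92 to 35.4 CPM in OSVZ (median 28.7 CPM), and 85.2, 136.8, 143.5 and 58.0 CPM in CP. No germinal library reached the CP range for this arm.

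This 3p arm, miR-135b-3p, was lower, at -2.36 ± 0.65 in VZ against CP (edgeR adjusted p = 0.0186; set 1 -2.98, set 2 -1.66) and at -2.12 ± 0.59 in OSVZ against CP (adjusted p = 0.0194; set 1 -2.0001, set 2 -2.29). Both calls ended with library totals (adjusted p = 0.108 in VZ and 0.0867 in OSVZ) and with no filter (0.0684 and 0.0780), and the OSVZ call without the set as a block (0.0534). They also ended without single libraries. For VZ the adjusted p was 0.129 without VZ_18 replicate 1, 0.159 without CP_17 replicate 2 and 0.168 without CP_18 replicate 1. For OSVZ it was 0.0691 without OSVZ_17int replicate 1, 0.308 without OSVZ_18 replicate 2, 0.0758 without CP_17 replicate 1, 0.147 without CP_17 replicate 2 and 0.311 without CP_18 replicate 1.

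**Figure D1:**
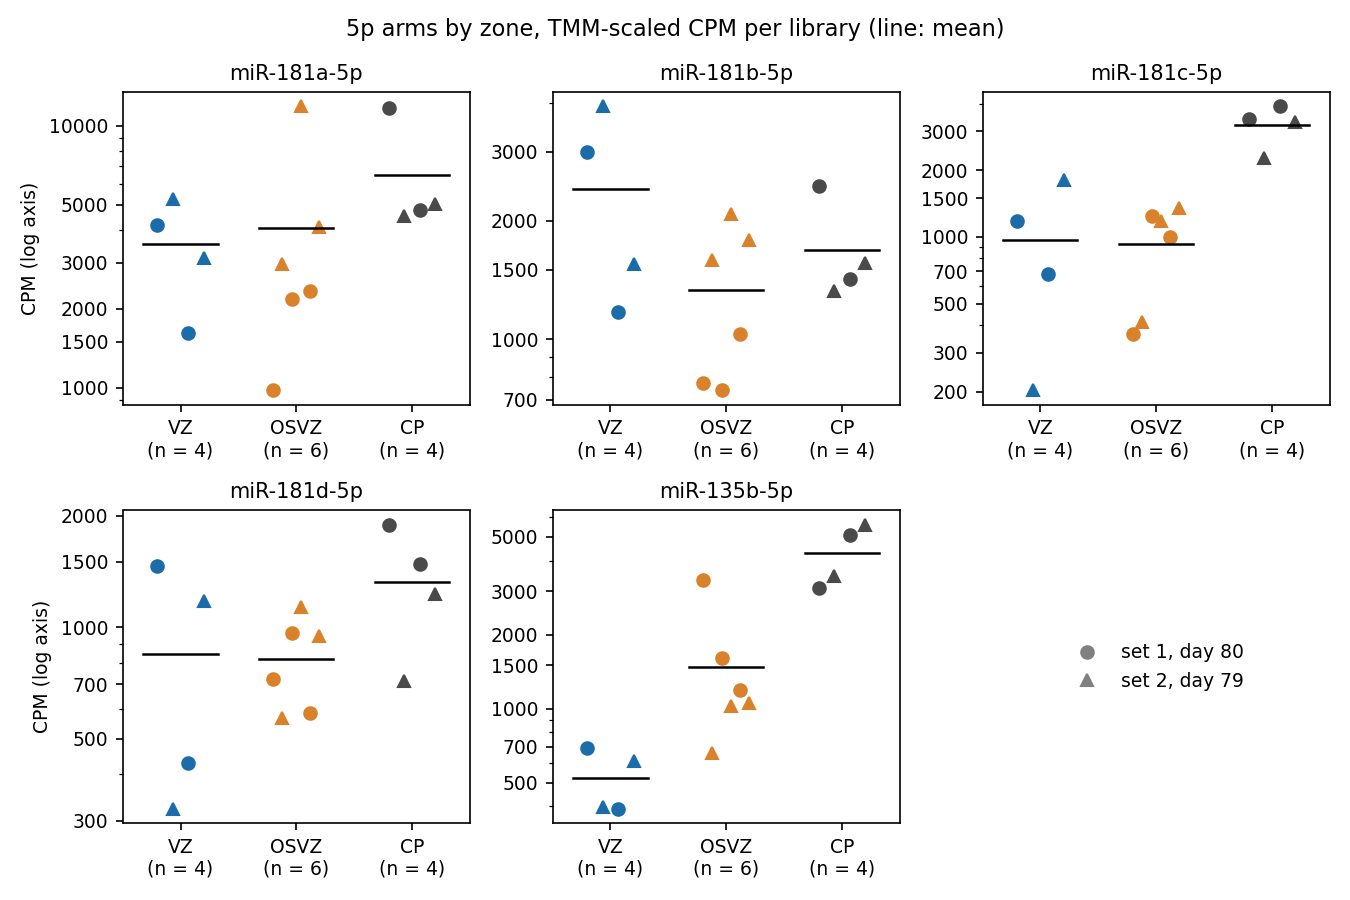
TMM-scaled CPM of the 5 abundant 5p arms (y axis, logarithmic) in VZ, OSVZ and CP, with 1 point per library, circles for set 1, triangles for set 2 and a line at the mean. For miR-135b-5p the 4 VZ libraries (391 to 691 CPM) and for miR-181c-5p all germinal libraries (203 to 1809 CPM) lie below the 4 CP libraries, while miR-181a-5p and miR-181b-5p overlap between zones.

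miR-135a was all but missing from the same libraries. Its 5p arm had 12 counts in all 14 libraries together, against 176510 counts of miR-135b-5p. It had 0 counts in 8 libraries, among them all 4 of VZ. A count of 0 allows up to 3 counts, or 0.28 to 0.69 CPM per library over those 8 libraries. The 3p arm miR-135a-3p had 5, 0, 9 and 12 counts in VZ, 0 to 20 in OSVZ, and 9, 0, 15 and 63 in CP. The sources used here do not say where the authors placed reads that match both nearly identical 5p arms, so the level of miR-135a-5p is uncertain, and no fold is given for miR-135a.

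miR-181c carried the clearest zone difference of its family. Its 5p arm stood at 1181, 203, 678 and 1809 CPM in the VZ libraries, 365 to 1351 CPM in OSVZ (median 1088 CPM), and 3401, 2275, 3898 and 3307 CPM in CP. Every one of the 10 germinal libraries lay below every CP library. The lowest VZ value came from VZ_17 replicate 2, one of the libraries that stood apart.

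Against CP, miR-181c-5p was lower, at -1.79 ± 0.43 in VZ (edgeR adjusted p = 0.00542; set 1 -2.02, set 2 -2.18) and at -1.81 ± 0.40 in OSVZ (adjusted p = 0.00227; set 1 -2.15, set 2 -1.50). Its mean ± SD was 968 ± 689 CPM for the 4 VZ libraries, 925 ± 432 CPM for the 6 of OSVZ and 3220 ± 681 CPM for the 4 of CP. The OSVZ call held in the same 21 settings. The VZ call ended without VZ_18 replicate 1 (-1.23, adjusted p = 0.112), and without the set as a block its adjusted p was 0.0535. The difference was -2.79 without VZ_17 replicate 1 and -2.39 without VZ_18 replicate 2, so its size depended on the VZ libraries.

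The opposite arm miR-181c-3p, with fewer reads, was also highest in CP. It had 260.4, 235.0, 301.7 and 223.4 CPM in VZ, 169 to 473 CPM in OSVZ (median 290 CPM), and 635, 614, 927 and 490 CPM in CP, again with all germinal libraries below all CP libraries. It was lower, at -1.36 ± 0.38 in VZ (edgeR adjusted p = 0.0216; sets -1.45 and -1.26) and at -1.20 ± 0.35 in OSVZ (adjusted p = 0.0311; sets -0.81 and -1.61). Both calls ended with DESeq2 size factors (adjusted p = 0.0639 in VZ and 0.0537 in OSVZ), library totals (0.163 and 0.117), no filter (0.143 and 0.172) and no block (0.115 and 0.213). The VZ call also ended without VZ_17 replicate 1, VZ_18 replicate 1, CP_17 replicate 2 or CP_18 replicate 1 (adjusted p of 0.0653, 0.206, 0.207 and 0.0826). The OSVZ call also ended without any 1 of 10 libraries, with adjusted p of 0.0583 (OSVZ_17int replicate 2), 0.0638 (CP_18 replicate 2), 0.0668 (VZ_18 replicate 1), 0.0687 (OSVZ_18 replicate 1), 0.105 (OSVZ_17ext replicate 2), 0.11 (OSVZ_17int replicate 1), 0.111 (CP_17 replicate 1), 0.15 (CP_18 replicate 1), 0.266 (CP_17 replicate 2) and 0.429 (OSVZ_18 replicate 2).

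miR-181d, the genomic neighbour of miR-181c, did not pass. miR-181d-5p had 1463, 323, 429 and 1175 CPM in VZ, 567 to 1132 CPM in OSVZ (median 837 CPM), and 1889, 713, 1475 and 1229 CPM in CP, so that the zones overlapped. Its difference was -0.63 ± 0.43 in VZ against CP (edgeR adjusted p = 0.403) and -0.69 ± 0.40 in OSVZ against CP (adjusted p = 0.453), with 95% intervals of -1.49 to 0.24 and -1.51 to 0.12. The VZ value turned on single libraries. It was -1.45 (adjusted p = 0.0283) without VZ_17 replicate 1, against -0.032 (adjusted p = 1) without VZ_18 replicate 1, -0.16 (0.936) without VZ_17 replicate 2 and -0.13 (0.938) without CP_17 replicate 1. The arm miR-181d-3p had few reads, at 0 to 41 counts in VZ, 9 to 113 in OSVZ and 6 to 53 in CP.

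miR-181a, the most abundant member, varied more between libraries than between zones. miR-181a-5p had 4192, 5247, 1617 and 3115 CPM in VZ, 977 to 11864 CPM in OSVZ (median 2656 CPM), and 11652, 4525, 4763 and 5041 CPM in CP. The highest library of all was OSVZ_17ext replicate 2 at 11864 CPM, and the lowest was OSVZ_17int replicate 1. The difference was -1.06 ± 0.43 in VZ against CP (edgeR adjusted p = 0.144; 95% interval -1.93 to -0.19) and -1.09 ± 0.40 in OSVZ against CP (adjusted p = 0.119; -1.91 to -0.27).

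The sets did not show the same size for miR-181a-5p. In OSVZ against CP the difference was -2.01 in set 1 and 0.047 in set 2, and in VZ against CP it was -1.52 and -0.24. Much of the difference came from 1 high CP library. Without CP_17 replicate 1, at 11652 CPM, it was -0.25 for VZ (edgeR adjusted p = 0.863) and -0.25 for OSVZ (adjusted p = 0.918). Leaving out CP_17 replicate 2 gave -1.49 for VZ (edgeR adjusted p = 0.0288) and -1.57 for OSVZ (adjusted p = 0.0144), and OSVZ also passed without VZ_17 replicate 2 (-1.06, 0.036) or without OSVZ_17ext replicate 2 (-1.33, 0.034). The arm miR-181a-3p averaged 760 ± 88.6 CPM in the 4 VZ libraries, 954 ± 427 CPM in the 6 OSVZ libraries and 1239 ± 352 CPM in the 4 CP libraries, with differences of -0.64 ± 0.36 and -0.43 ± 0.33 that did not pass (adjusted p = 0.299 and 0.654). Its OSVZ libraries split by set, at 1178 to 1417 CPM in set 1 and 542 to 598 CPM in set 2. The share of 5p counts over all arms also split by set in OSVZ, at 62.9% to 76.55% in set 1 and 83.65% to 85.0% in set 2. In the other zones they did not go together. For CP, miR-181a-3p split, at 1408 and 1653 CPM in set 1 and 921 and 974 CPM in set 2. The share there overlapped between sets, at 88.8% and 84.7% against 87.6% and 88.4%. For VZ, the share split, at 69.8% and 62.85% in set 1 and 80.1% and 81.1% in set 2. There miR-181a-3p overlapped between sets, at 851 and 745 CPM against 802 and 644 CPM. A link between them was not tested.

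miR-181b-5p, of a miRNA encoded beside miR-181a, was the abundant member whose mean was higher in VZ than in CP. It had 3002, 3915, 1173 and 1553 CPM in VZ, 740 to 2084 CPM in OSVZ (median 1308 CPM), and 2450, 1322, 1422 and 1565 CPM in CP. Both VZ_17 libraries exceeded all others, and the VZ_18 libraries lay within or below the CP range. The difference from CP was 0.31 ± 0.38 in VZ (edgeR adjusted p = 0.662; -0.45 to 1.07) and -0.43 ± 0.35 in OSVZ (adjusted p = 0.68; -1.15 to 0.29), neither passing. The arm miR-181b-3p, at 36.1 to 88.0 CPM in VZ, 25.4 to 84.4 CPM in OSVZ and 38.2 to 159 CPM in CP, had differences of -0.87 ± 0.54 and -1.04 ± 0.50 (adjusted p = 0.358 and 0.303).

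**Figure D2:**
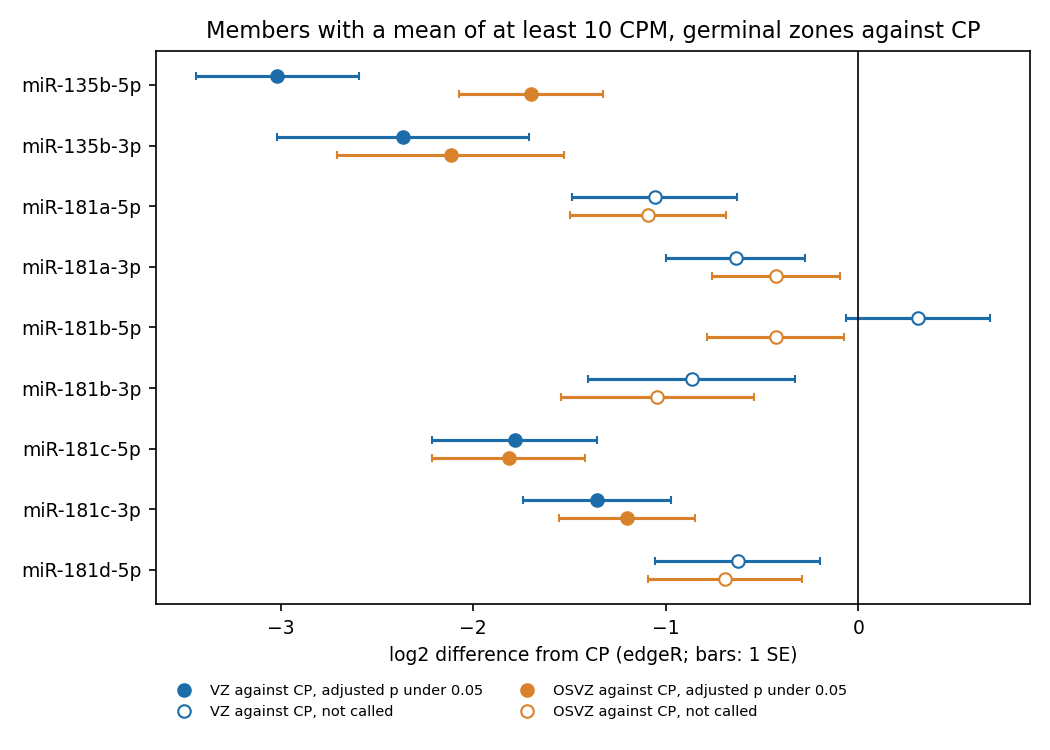
Fitted log2 differences from CP (x axis, bars of 1 SE) for the 9 member arms averaging 10 CPM or more, VZ in blue above OSVZ in orange, filled where the adjusted p was under 0.05. Both arms of miR-135b and miR-181c are filled and lie between -3.02 and -1.20, and miR-181b-5p in VZ (0.31) is the only point above 0 among those drawn.

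Over the list, 4 of 11 tested members were lower in VZ than in CP, 0 were higher and 7 did not pass, and the same counts held in OSVZ against CP. The 4 arms were both arms of miR-135b and of miR-181c in each comparison, and both comparisons share the CP libraries. Over all 1139 arms 7.37% were called in VZ against CP (2.63% higher, 4.74% lower) and 6.32% in OSVZ against CP (2.11% higher, 4.21% lower). These shares include many arms rarer than most members. Of the 1139 arms, 379 averaged at least 10 CPM, as did all tested members but miR-181d-3p and miR-135a-3p. A fit on arms of at least 10 CPM called 89 arms in each comparison, 4 of them members. The split into higher and lower depended on the scaling. Calls were 30 higher and 54 lower in VZ with TMM, against 37 and 32 with library totals, and 24 and 48 in OSVZ with TMM, against 35 and 44 with DESeq2 size factors and 38 and 34 with library totals. The median log2 difference of the 11 members was -1.06 in VZ and -1.09 in OSVZ, against -0.22 and -0.20 over all arms tested. Since the families were picked with earlier results known, these counts are a description. With library totals or without the set as a block the members called were 2 in each comparison, and with 1 library left out they were 1 to 4 in VZ (1 without VZ_18 replicate 1, 2 without CP_18 replicate 1) and 2 to 5 in OSVZ (2 without OSVZ_17int replicate 1, OSVZ_18 replicate 2, CP_17 replicate 1 or CP_18 replicate 1).

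**Figure D3:**
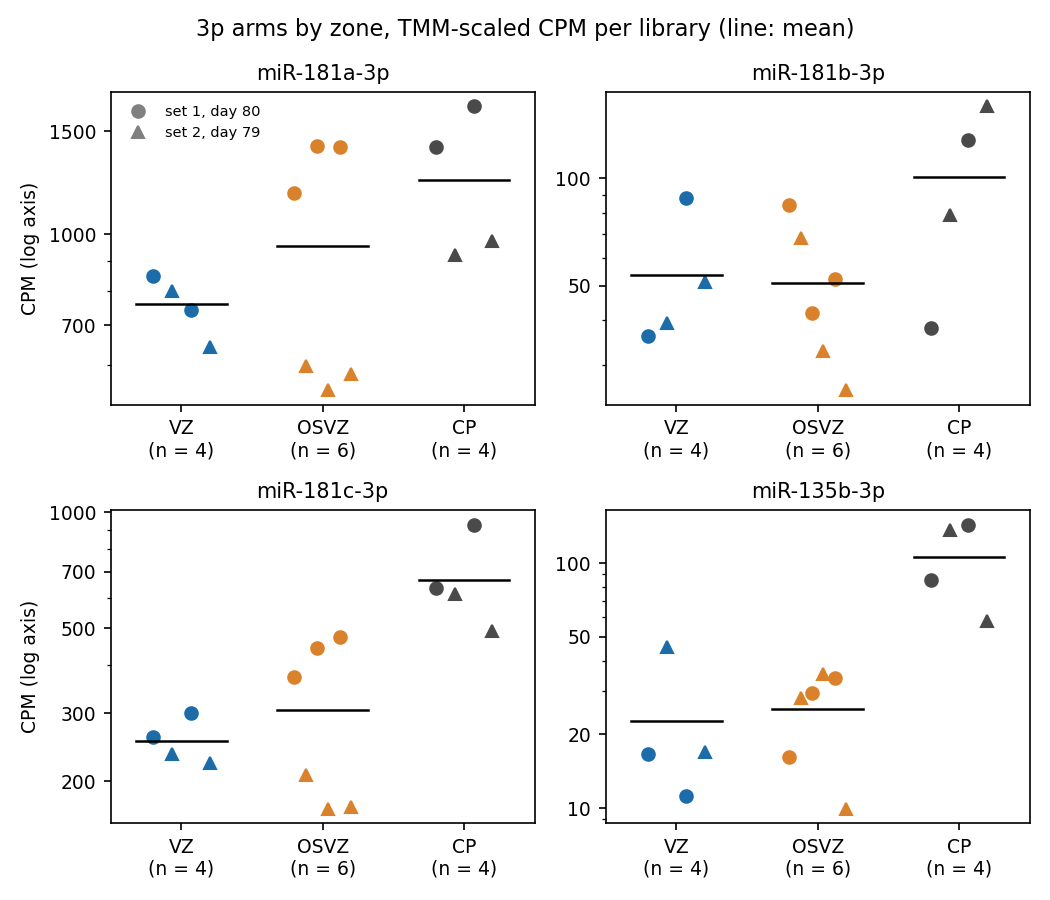
TMM-scaled CPM of the 3p arms of miR-181a, miR-181b, miR-181c and miR-135b (y axis, logarithmic) by zone, with 1 point per library, circles for set 1, triangles for set 2 and a line at the mean. For miR-181c-3p (169 to 473 CPM) and miR-135b-3p (9.92 to 45.6 CPM) all germinal libraries lie below CP, and OSVZ libraries of miR-181a-3p and miR-181c-3p separate by set.

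Ranges of CPM that did not overlap were counted too. VZ and CP did not overlap for 5 members, both arms of miR-135b and miR-181c and miR-181a-3p, where 13.2% of all tested arms did not overlap. OSVZ and CP did not overlap for 3 members, both miR-181c arms and miR-135b-3p, where 8.43% of all tested arms did not. VZ and OSVZ overlapped for all 11 members, where 2.11% of all arms did not overlap.

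The miR-181 5p arms together summed to 7768 ± 2767 CPM in VZ, 7152 ± 4778 CPM in OSVZ and 12732 ± 4599 CPM in CP (SD over libraries). The make-up of the miR-181 pool was read from counts within a library, which no scaling changes. Of miR-181 5p counts, miR-181a-5p took 44.7% ± 6.3 in VZ (SD, n = 4), 50.1% ± 13.0 in OSVZ (n = 6) and 49.4% ± 8.2 in CP (n = 4). miR-181b-5p took 20.3% to 40.4% in VZ, 12.8% to 28.6% in OSVZ and 12.3% to 14.96% in CP, without overlap between VZ and CP. miR-181c-5p took 2.09% to 23.6% in VZ, 7.26% to 24.3% in OSVZ and 17.5% to 33.7% in CP, with overlap. Of miR-181 3p counts, miR-181c-3p took 21.8% to 26.5% in VZ, 22.0% to 24.3% in OSVZ and 30.2% to 38.0% in CP, with both germinal zones below CP.

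**Figure D4:**
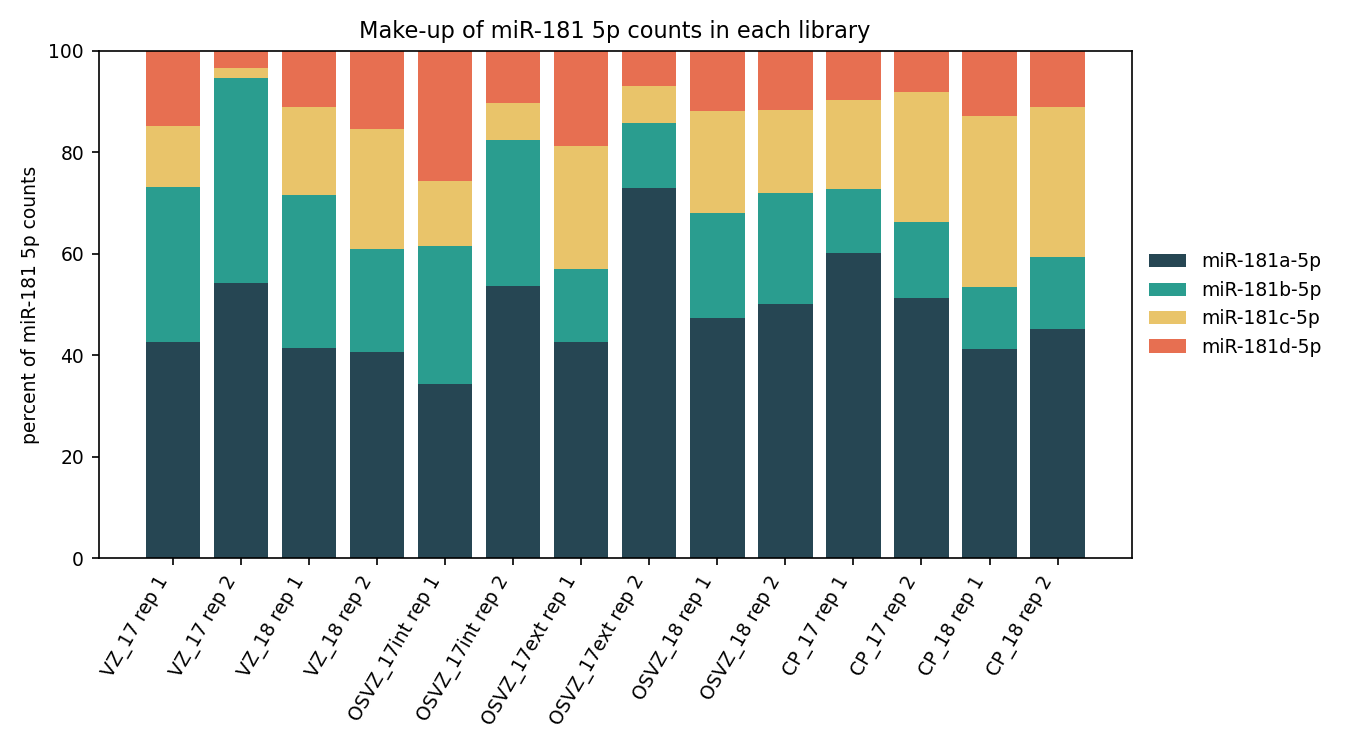
Percent of miR-181 5p counts (y axis, from 0) held by each of the 4 members in each of the 14 libraries, stacked from miR-181a-5p at the bottom to miR-181d-5p at the top. miR-181b-5p takes 12.3% to 14.96% in the CP libraries and 20.3% to 40.4% in the VZ libraries, and miR-181c-5p falls to 2.09% in VZ_17 replicate 2.

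Ratios between members were compared by exact two-sided permutation tests over libraries, which exchanged libraries between sets and so took no account of the set. The ratio of miR-181a-5p to miR-181b-5p averaged 1.51 in VZ, 2.43 in OSVZ and 3.64 in CP as geometric means, with a log2 difference of -1.27 for VZ against CP (exact p = 0.0286, the smallest that 70 arrangements allow). All 4 VZ libraries lay below all 4 CP libraries. OSVZ against CP gave -0.58 (exact p = 0.181) and OSVZ against VZ 0.69 (exact p = 0.0857). The ratio of miR-181c-5p to miR-181d-5p averaged 1.05 in VZ, 1.03 in OSVZ and 2.53 in CP, with -1.26 for VZ (exact p = 0.0286) and -1.29 for OSVZ against CP (exact p = 0.00952, the smallest that 210 arrangements allow). All germinal libraries lay below all CP libraries in that ratio.

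In all 21 such tests were run, on 7 ratios and 3 pairs of zones, and none passed the Benjamini-Hochberg adjustment, where the smallest adjusted p was 0.2. An isolated p at the smallest value these group sizes allow cannot pass over 21 tests. The balance of 5p to 3p counts within a miRNA was among them. Its geometric mean was 4.29 in VZ, 3.43 in OSVZ and 4.96 in CP for miR-181a, 42.7, 26.2 and 18.5 for miR-181b, 2.90, 2.93 and 4.87 for miR-181c, and 25.9, 55.0 and 42.1 for miR-135b. The ratio of miR-181a-5p to miR-181d-5p was 4.64 in VZ, 3.77 in OSVZ and 4.77 in CP. Exact p-values of the 12 tests of 5p to 3p balance were between 0.2 and 0.981. Over all arms, 5p counts made up 62.85% to 81.1% of a library in VZ, 62.9% to 85.0% in OSVZ and 84.7% to 88.8% in CP. The part of that shift in the member differences was not tested.

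**Figure D5:**
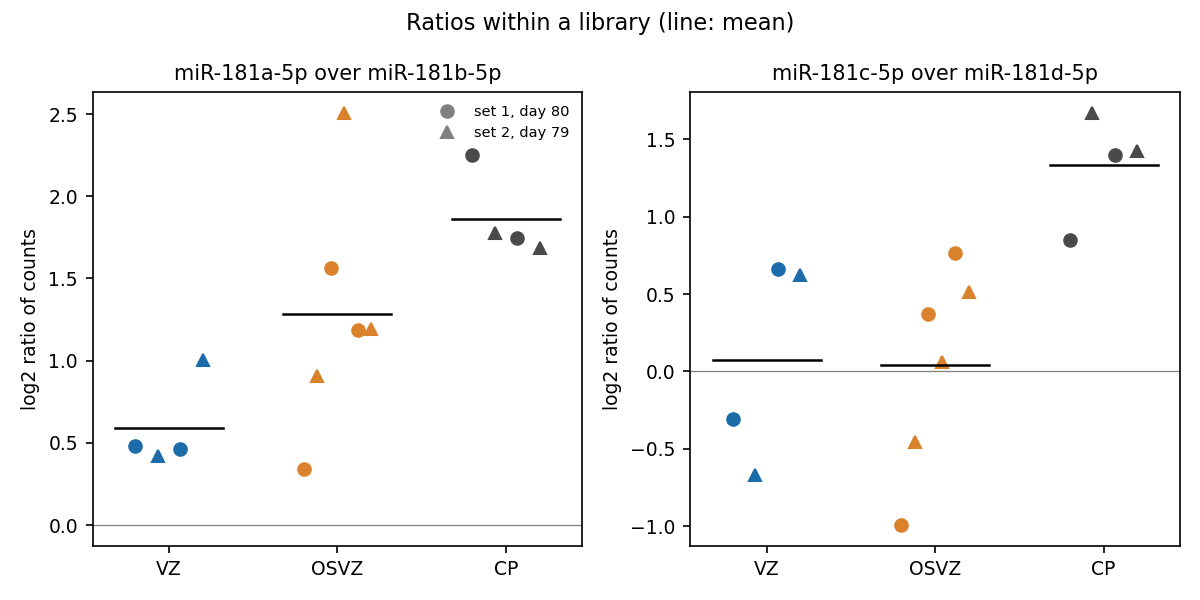
Log2 ratio of counts (y axis) of miR-181a-5p over miR-181b-5p (left) and of miR-181c-5p over miR-181d-5p (right) by zone, with 1 point per library, circles for set 1, triangles for set 2 and a line at the mean. VZ lies below CP without overlap in both panels (0.42 to 1.004 against 1.69 to 2.25, and -0.67 to 0.66 against 0.85 to 1.67), and OSVZ lies below CP without overlap only for miR-181c over miR-181d.

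Members were then compared between the germinal layers, between OSVZ sublayers and between areas, the comparisons that ask whether regions with different later output differ. In OSVZ against VZ 0 of 11 members passed with edgeR, where 0.0878% of arms were called, and DESeq2 called 0 members and 28 arms. An unadjusted p under 0.05 was found for 113 arms and 2 members. These were miR-135b-5p, at 1.32 ± 0.38 (adjusted p = 0.254; 0.54 to 2.10; sets 1.68 and 0.91), and miR-181b-5p, at -0.74 ± 0.35 (adjusted p = 0.482; sets -1.09 and -0.45). miR-135b-5p was the 6th smallest p of 1139 arms in that comparison. It passed without VZ_17 replicate 1 (1.56, adjusted p = 0.0449) and was at 0.98 (adjusted p = 0.799) without VZ_18 replicate 1.

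Between the inner and the outer OSVZ of area 17, 0 of 11 members and 0% of all arms were called by edgeR, 2 members and 46 arms had an unadjusted p under 0.05, and DESeq2 called 0 members and 2 arms. miR-181a-5p had 977 and 2974 CPM in the inner sublayer and 2184 and 11864 CPM in the outer one, a difference of -1.76 ± 0.61 (adjusted p = 0.938; sets -1.16 and -1.996). miR-181c-5p had 365 and 413 CPM in the inner and 1246 and 1180 CPM in the outer sublayer, at -1.63 ± 0.61 (adjusted p = 0.938; sets -1.77 and -1.51). Inner was below outer in both sets for each arm. Without OSVZ_17ext replicate 2 miR-181a-5p was at -0.45 (adjusted p = 1) and miR-181c-5p at -1.58 (adjusted p = 1). No planned setting gave a call for either arm, and both passed only in a setting chosen after seeing the data, without both VZ libraries that stood apart (-1.89 and -1.79, adjusted p = 0.0327 and 0.0388).

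Between areas 17 and 18, 0 of 11 members passed with edgeR, where 0.0878% of arms were called, and DESeq2 called 0 members and 16 arms. An unadjusted p under 0.05 was found for 99 arms and 2 members, miR-181a-5p, at 0.68 ± 0.33 (adjusted p = 0.573; sets 0.66 and 0.38), and miR-181c-5p, at -0.69 ± 0.34 (adjusted p = 0.568; sets 0.014 and -1.55). miR-181c-5p was at -1.27 (adjusted p = 0.0131) without VZ_17 replicate 1, against -0.27 (0.838) without VZ_17 replicate 2 and -0.36 (0.753) without VZ_18 replicate 2. miR-181a-5p was at 0.17 (adjusted p = 1) without CP_17 replicate 1. Tests of whether the area difference itself varied between zones gave adjusted p of 0.843 or above for all members.

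Arms with the most similar pattern were found by Pearson r of log2 CPM over the 14 libraries, with each set centred, among 370 non-member arms of at least 10 CPM. The libraries share depth and zone differences, so r is a description. For miR-181a-5p they were miR-1246-5p (r = 0.825), miR-382-5p (0.691) and miR-485-3p (0.651), both of the imprinted domain near MEG3, miR-361-5p (0.643) and the let-7 relative miR-98-5p (0.623). For miR-135b-5p they were miR-331-3p (0.933), miR-140-5p, best known from cartilage (0.906), miR-885-5p (0.905), miR-708-5p (0.904) and miR-340-3p (0.892). miR-708-5p averaged 685 CPM in VZ, 1406 CPM in OSVZ and 3809 CPM in CP.

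Among members, r was 0.806 for miR-181c-5p with miR-181d-5p and 0.661 for miR-181a-5p with miR-181b-5p, which are neighbours in the genome. It was 0.589 for miR-181a-5p with miR-181d-5p, 0.526 for miR-181a-5p with miR-181c-5p, 0.165 for miR-181b-5p with miR-181d-5p and -0.036 for miR-181b-5p with miR-181c-5p. Among the 3p arms, neighbours were not the most alike. There r was 0.876 for miR-181a-3p with miR-181c-3p, which are not neighbours. It was 0.406 for miR-181a-3p with miR-181b-3p and -0.247 for miR-181c-3p with miR-181d-3p, an arm with few reads. Across the families miR-135b-3p and miR-181c-3p had r = 0.880. The 5p and 3p arms listed under 1 name were less alike for miR-181a (0.186) and miR-181b (-0.402) than for miR-135b (0.655), miR-181c (0.609) and miR-181d (0.598).

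For comparison, of 21 tested arms of neuronal miRNAs 8 were lower in VZ than in CP and 10 lower in OSVZ than in CP, with 0 higher, and the medians were -1.55 and -2.15. miR-138-5p, a regulator of dendritic spines, was at 326 CPM in VZ, 351 CPM in OSVZ and 4034 CPM in CP. Of 22 progenitor and radial glia arms 3 were higher and 1 lower in VZ than in CP, with 2 higher and 0 lower in OSVZ than in CP. Among them miR-92b-3p was at 38829 CPM in VZ, 18921 CPM in OSVZ and 786 CPM in CP. The lists were chosen with earlier results known and support nothing by themselves.

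Since miR-181 is also abundant in lymphocytes, markers of blood cells were set beside it. The 12 myeloid and lymphoid arms summed to 6439 to 9052 CPM in VZ, 8413 to 18586 CPM in OSVZ and 16070 to 35390 CPM in CP. Most of that sum was miR-342-3p, which averaged 6760 CPM in VZ, 12133 CPM in OSVZ and 22894 CPM in CP, and which was lower in VZ than in CP (-1.67 ± 0.37, edgeR adjusted p = 0.00214). Of the other arms, miR-142-3p averaged 1.39 CPM and had 0 counts in 9 of 14 libraries, while miR-150-5p averaged 508 CPM and was counted in all 14. miR-155-5p was higher than in CP both in VZ (2.92 ± 0.53, edgeR adjusted p = 0.000184) and in OSVZ (2.41 ± 0.50, adjusted p = 0.00129). miR-223-3p was higher in VZ than in CP (2.29 ± 0.52, adjusted p = 0.00303). In VZ against CP 2 of 12 arms were higher and 1 lower, and in OSVZ against CP 1 was higher and 0 lower. The 6 erythroid arms summed to 55.9 to 334 CPM in VZ, 18.9 to 103 CPM in OSVZ and 27.5 to 125.8 CPM in CP, and both endothelial miR-126 arms to 980 to 2795, 1434 to 5289 and 1547 to 4505 CPM in the same order. Their part in the miR-181 differences was not tested.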

How the data were processed

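Small RNA from laser-cut macaque cortex went into size-selected SOLiD libraries, per the labels' protocols. The authors deposited whole-number read counts for each miRNA and arm. Their aligner, genome build, annotation and handling of reads with several matches are not given in the sources used here. Tables were assigned to sets by the spelling of their region names, and 12 value columns, whose names match no label, were not used. Names in both other tables gave 1656 arms in 14 libraries.

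filterByExpr by region kept 1139 arms. Counts were TMM-scaled and fitted with edgeR 4.0.16 (R 4.3.3; quasi-likelihood F test) on 7 regions, with the set as a block because each set has its own embryonic day in the labels. As a check of pairing, same-set deviations from region means had a median correlation of 0.309 in 21 region pairs, 20 of which exceeded 0.1. P-values were Benjamini-Hochberg adjusted over all arms tested, with calls under 0.05. Zone values average both areas, and the area 17 OSVZ is the mean of its sublayers. Values within a set are differences of log2(CPM + 0.5). Ratios used counts plus 0.5 and required at least 10 counts of both arms in every library of both zones. A ratio of miR-135a-5p to miR-135b-5p was not computed, because miR-135a-5p did not reach that number. The fit was also run on simulated data that held no set effect and used spreads estimated from these libraries. No result here rests on that run. Alternatives were DESeq2 1.42.0, other scalings and filters, no block, and each library left out.

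Members and lists were chosen with earlier results of these data known. The naming rule was all member arms, the 5 arms of highest r for the most abundant arm of each family, and at most 4 arms a list by smallest p. Which member differences to print, and the markers miR-124-3p, miR-142-3p, miR-150-5p and both miR-9 arms, were chosen after values were seen.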

Additional observations from a re-analysis of the deposited data

Results flagged for a closer look

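Values were checked for a library far from the others of its zone, which chance gives for about 5% of groups, over 54 groups. miR-181a-5p stood at 11652 CPM in CP_17 replicate 1, against 4525 to 5041 CPM in the other CP libraries. The ratio of miR-181a-5p to miR-181b-5p was 4.76 in that library, against 3.22 to 3.42 in the others of CP. The same ratio was 2.01 in VZ_18 replicate 2, against 1.34 to 1.40 in the other VZ libraries. The 5p to 3p ratio of miR-135b was 8.73 in VZ_17 replicate 2, against 34.8 to 41.5 in the other VZ libraries. That library also had the lowest summed neuronal arms of all 14, a sum that is mostly miR-9 over the libraries.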

How the results depend on the processing

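Without the set as a block, arms called fell to 53 in VZ against CP and members called to 2 in VZ and 2 in OSVZ against CP, with 0 arms in OSVZ against VZ and 0 between areas. miR-181c-3p then had an adjusted p of 0.115 in VZ and 0.213 in OSVZ against CP. With library totals, or with no filter, members called were 2 and 2. OSVZ against VZ had 0 arms called with library totals or DESeq2 size factors and 3 among arms of at least 10 CPM. Between areas no filter gave 11 arms and the 10 CPM minimum 0. DESeq2's test called 169 arms in VZ and 120 in OSVZ against CP, 28 in OSVZ against VZ, 2 between sublayers and 16 between areas, and 4 members against CP in each zone. The median log2 difference of all arms in VZ against CP was -0.22 with TMM, 0.023 with DESeq2 size factors and 0.21 with library totals.

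Leaving out each library gave 53 to 120 arms and 1 to 4 members in VZ against CP, 44 to 100 and 2 to 5 in OSVZ against CP, 0 to 24 and 0 to 1 in OSVZ against VZ, 0 to 1 arms and 0 members between sublayers, and 0 to 24 and 0 to 1 between areas. In all of these but the sublayers, the highest count of arms came without VZ_17 replicate 1. miR-181b-5p ran from -0.012 (without CP_17 replicate 2) to 0.82 in VZ against CP and from -0.78 to 0.14 (without CP_17 replicate 1) in OSVZ against CP. Over all 55 member differences, of 770 such values 675 kept direction and side of the threshold, 23 lost the call, 7 gained it and 65 reversed. The 24 differences printed here, chosen after values were seen, hold 2 of those reversals.

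Leaving out VZ_17 replicate 2 and VZ_18 replicate 1 together, chosen after seeing the data, gave 2 members in VZ against CP, 125 arms in OSVZ against CP, 2 in OSVZ against VZ, 6 between sublayers with 2 members, and 3 between areas. miR-181d-5p was then at 0.26 and miR-181c-5p at -0.88 (adjusted p = 0.231) in VZ against CP. The cause of these changes was not tested.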
